A study of Mus musculus with 6 samples.

Results

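The genes described here encode subunits of the proteasome and enzymes of the ubiquitin system, followed in virus-specific CD8+ T cells of mice with and without B cells. They were taken by symbol from the deposited table of genes that differed between the groups (the listed genes), using the usual stems of proteasome subunits, ubiquitin activating and conjugating enzymes, ligases, deubiquitinases and the Vcp system. The stems matched 36 symbols, and without the interferon-inducible genes Psmb8 and Usp18 this left 34 of the 1018 listed genes. Of these 34 genes, 12 encode subunits of the 19S regulator and 1 encodes the proteasome activator Psme3, and the other 21 act in the ubiquitin system.

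RNA was sequenced from 3 control mice (WT) and 3 JHT mice, adults of both sexes on the C57BL/6J background, each 7 days after infection with the Smith strain of murine cytomegalovirus (MCMV). JHT mice carry a germline deletion of the heavy chain J segments of the immunoglobulin locus, so they form no B cells at any stage of life, and every cell type of the spleen developed without them. CD8+ T cells recognised by a tetramer of MHC molecules carrying the viral M45 peptide were sorted from the spleen, in equal numbers, and each of the 6 libraries came from a separate mouse. No uninfected sample was analysed here, so infection is shared by both groups.

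Proteins are marked for destruction by ubiquitin, which an activating enzyme (E1) passes to a conjugating enzyme (E2) and a ligase (E3) attaches to the substrate. The proteasome consists of a barrel-shaped proteolytic core, the 20S particle, capped by the 19S regulator, whose base unfolds substrates with a ring of ATPases and whose lid removes ubiquitin. In T cells the system supplies peptides for antigen presentation and sets the turnover of signalling proteins and of cell cycle regulators during clonal expansion.

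All 34 genes had higher values in JHT than in WT cells, in a table that was itself selected for a difference between these libraries. Limma gave an adjusted p between 2.91e-07 and 0.0146 for them, and 0 genes were lower. The same test called 100% of all listed genes and found 96.6% of them higher in JHT, so the count of 34 is no more than the table's own background. Limma drew the variance of a gene largely from the listed genes together, and the standard errors (SE) of the 34 genes were all 0.37 to 0.41. The SE and p-values below therefore do not measure the spread of a single gene, which its values and SD show. The median fold change between group means was 2.62 (range 2.00 to 5.40), against 2.89 over all listed genes, and the median log2 change was 1.44 against 1.47. A fold between 2 and 3 was found for 21 genes, between 3 and 4 for 9 and above 4 for 4. In bulk RNA, fewer cells of a type and less RNA per cell cannot be told apart, and this applies to every difference below.

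For every 1 of the 34 genes the 3 JHT values lay above the 3 WT values, as they lay on a single side of them for 100% of the listed genes. The summed value of the 34 genes was 792, 1516 and 1311 in WT replicates 1 to 3 and 2849, 3001 and 3738 in JHT replicates 1 to 3. WT-1 was the lowest WT library for 29 of the 34 genes (85.3%) and for 65.8% of the listed genes that were higher in JHT. JHT-3 was the highest JHT library for 28 of them (82.4%), against 65.6%. Leaving WT-1 out lowered the median fold to 2.31 for the 34 genes and to 2.57 for all listed genes. The values are expression levels scaled for gene length and library, and in the smallest whole reads that their ratios allow the 34 genes together held 28769, 62029 and 57509 reads in WT and 114130, 156469 and 151300 in JHT. The fewest reads behind a value were 75, for Rnf121 in WT-1, and 33 genes had at least 100 in every library.

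**Figure D1:**
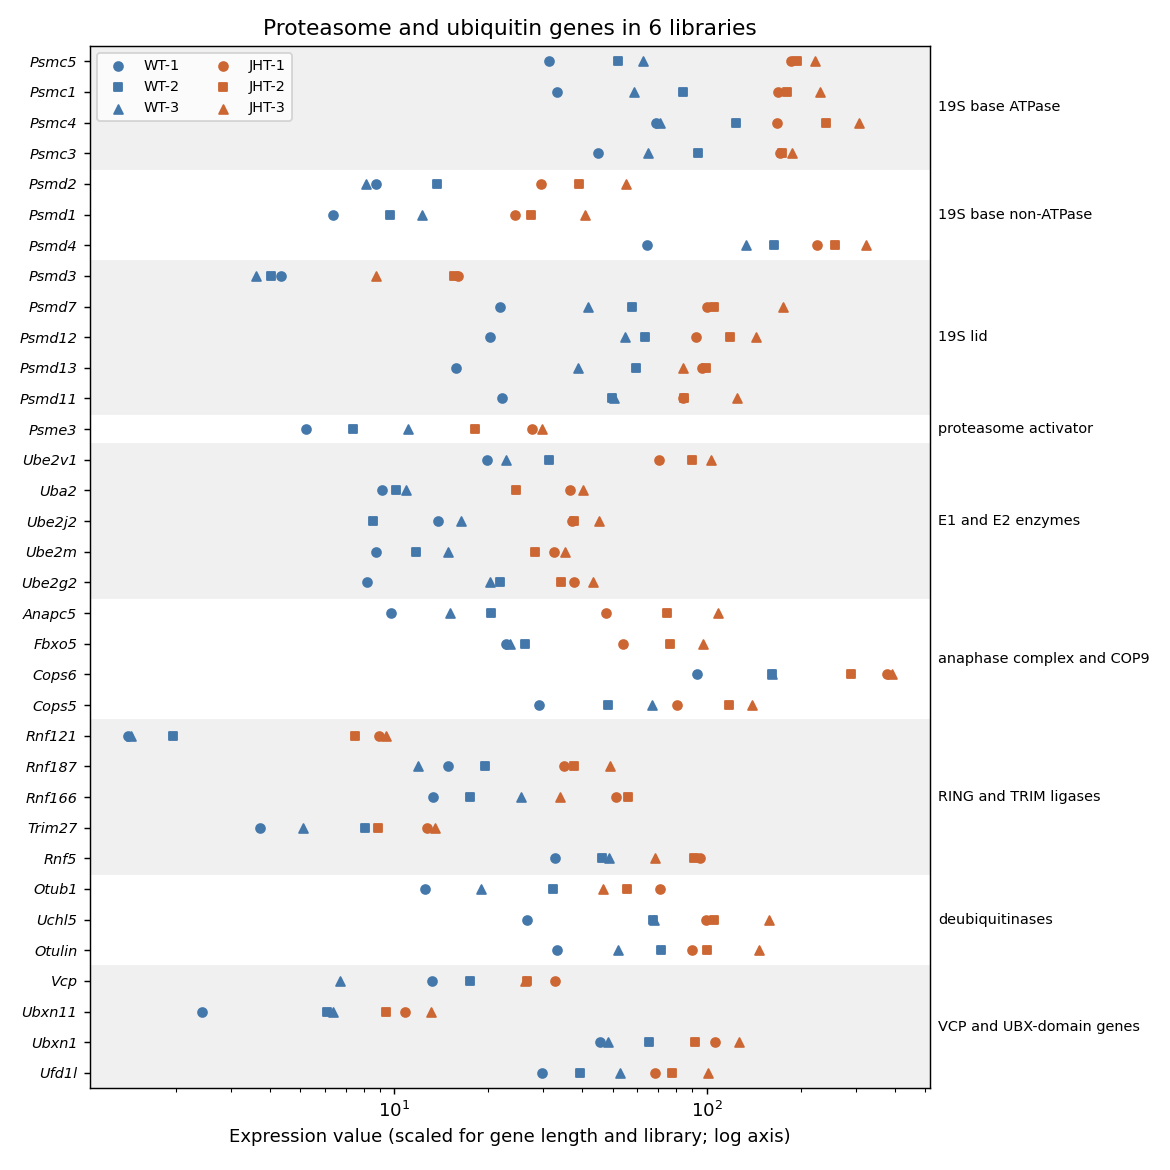
Expression value (log axis, scaled for gene length and library) of the 34 proteasome and ubiquitin genes in each of 3 WT libraries (blue) and 3 JHT libraries (orange), with genes grouped by role and sorted by fold within a role. In each row the orange points lie to the right of the blue ones, with the smallest gap, 1.10-fold, at Trim27 and the widest, 3.84-fold, at Rnf121, and the WT-1 circle is the leftmost point in 29 of 34 rows.

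The sorted cells could be checked against only a few markers, because most were not among the listed genes. Of 9 CD8+ T cell markers 1 had values, the T cell receptor kinase Lck, at 184 to 381 in WT and 554 to 768 in JHT. Of the B cell, myeloid, NK cell and CD4+ T cell markers 0 had values and were not analysed here. Of 5 erythroid markers 1 had values, the red cell enzyme Bpgm, at 1.65 to 6.14 in WT and 10.2 to 13.9 in JHT. The part of other cells in the results below was not tested.

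The ATPases of the 19S base form the ring that unfolds substrates and threads them into the core. The 4 listed ATPases, Psmc1, Psmc3, Psmc4 and Psmc5, rose by a median of 3.02-fold. The highest fold among all proteasome genes was that of Psmc5 (ENSMUSG00000020708, chr11:106256154-106263120 on the plus strand of GRCm38), which is also known for binding transcription factors. Psmc5 had values of 31.3, 52.0 and 62.7 in WT and 186, 196 and 223 in JHT. Its JHT values lay close together and the lowest was 2.97 times the highest WT value. The means were 48.7 ± 15.9 and 202 ± 19.1 (SD, n = 3), which differ 4.14-fold (log2 change 2.08 ± 0.39 SE, adjusted p = 1.24e-06 by limma).

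Psmc1, whose tail docks into the core and helps open its gate in yeast, had values of 33.1, 83.8 and 58.4 in WT and 170, 181 and 231 in JHT. Its fold was 3.32, and leaving out single libraries gave 2.73 to 4.24. Psmc4 reached 69.1, 124 and 71.2 in WT and 168, 242 and 308 in JHT, a 2.72-fold difference in which both groups spread widely. Psmc3 stood at 44.99, 94.2 and 65.0 in WT and at 172, 175 and 188 in JHT, a 2.62-fold difference with the tightest JHT values of the 4 (178 ± 8.66, SD, n = 3). Of the summed value of the 4 ATPases, Psmc5 supplied 17.6, 14.7 and 24.4% in WT and 26.7, 24.7 and 23.5% in JHT, and Psmc3 supplied 25.2, 26.6 and 25.3% in WT and 24.7, 22.05 and 19.8% in JHT. The groups did not overlap in the share of Psmc3, which was lower in JHT, and overlapped in the shares of the other 3 ATPases. These shares were not tested.

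The other 3 listed base subunits also rose, by a median of 3.27-fold. Psmd4, the ubiquitin receptor of the base, had the highest level of all proteasome genes, with values of 64.6, 165 and 133 in WT and 226, 257 and 324 in JHT. WT-1 lay well below the other WT libraries for it. The means of Psmd4 were 121 ± 51.3 and 269 ± 50.3 (SD, n = 3), the smallest fold of the 13 proteasome genes (2.23; log2 change 1.24 ± 0.38 SE, adjusted p = 0.00155 by limma). Psmd2 is a large scaffold on which shuttle proteins and a deubiquitinase dock. It had values of 8.72, 13.7 and 8.10 in WT and 29.6, 39.0 and 55.2 in JHT. Its means of 10.2 ± 3.08 and 41.3 ± 12.96 (SD, n = 3) differed 4.06-fold (log2 change 1.91 ± 0.40 SE, adjusted p = 9.52e-06 by limma), and 14.9% of its 75-base stretches also occur in other genes, mostly in Gm5422, so part of its reads may be shared. Psmd1, the second large scaffold, had values of 6.38, 9.67 and 12.3 in WT and 24.4, 27.4 and 40.8 in JHT, a 3.27-fold difference.

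The lid holds the particle's own deubiquitinase, which was not analysed here, its dimer partner Psmd7 and a horseshoe of scaffold subunits, of which Psmd3, Psmd11, Psmd12 and Psmd13 were listed. The 5 lid genes rose by a median of 2.56-fold, and by 2.00-fold without WT-1. The values of Psmd7 were 21.7, 57.6 and 41.8 in WT and 100.02, 105 and 176 in JHT (3.15-fold). Psmd12 had 20.3, 63.4 and 55.0 against 92.5, 119 and 144 (2.56-fold). Psmd13 had 15.7, 59.2 and 38.9 against 96.7, 99.4 and 83.8 (2.46-fold). For both scaffold subunits WT-1 was less than any other library, and without it the fold of Psmd13 was 1.90. Psmd11, a subunit whose level raises proteasome activity in human embryonic stem cells, had values of 22.1, 49.7 and 50.4 in WT and 84.1, 84.4 and 126 in JHT (2.40-fold).

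Psmd3 is another lid scaffold. Its WT values were nearly equal, at 4.33, 4.03 and 3.62, and its JHT values were 16.0, 15.5 and 8.74, so that WT-1 was its highest WT library and JHT-3 its lowest JHT library. The means were 3.99 ± 0.355 and 13.4 ± 4.06 (SD, n = 3), a 3.36-fold difference. It was the lowest of the 12 subunits in every library, on the length-scaled values that allow levels of genes to be compared.

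Psme3 encodes a nuclear activator that caps the core in place of the 19S regulator and works without ubiquitin. It was the only activator with values, at 5.20, 7.38 and 11.05 in WT and 27.7, 18.1 and 29.7 in JHT. Its means of 7.88 ± 2.96 and 25.2 ± 6.19 (SD, n = 3) differed 3.20-fold (log2 change 1.58 ± 0.39 SE, adjusted p = 0.000148 by limma).

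The 12 regulator subunits spanned a wide range of levels, and their folds, 2.23 to 4.14, differed less from each other than their levels. Within a library the highest subunit stood 16.0, 40.9 and 36.9 times above the lowest in WT and 14.1, 16.6 and 37.1 times in JHT. Psmd4 was the highest subunit in 5 of 6 libraries and Psmc4 in WT-1. Across the 12 subunits the mean WT and JHT log2 levels had a Pearson correlation of 0.98 and a Spearman correlation of 0.95, a description over genes that share libraries and are not replicates. The log2 folds of the 12 had an SD of 0.29, against an SD of 1.46 for their WT log2 levels and a median log2 change of 1.48 between the groups. The order of subunits by level was therefore similar in both groups, although subunits of 1 particle sit in it in equal copies. This was not particular to the regulator. Across all 34 genes the correlations were 0.97 and 0.96, and the log2 folds had an SD of 0.37 against 1.48 for WT log2 levels. The selection of the table at a fold of at least 2 also limits the spread of folds.

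**Figure D2:**
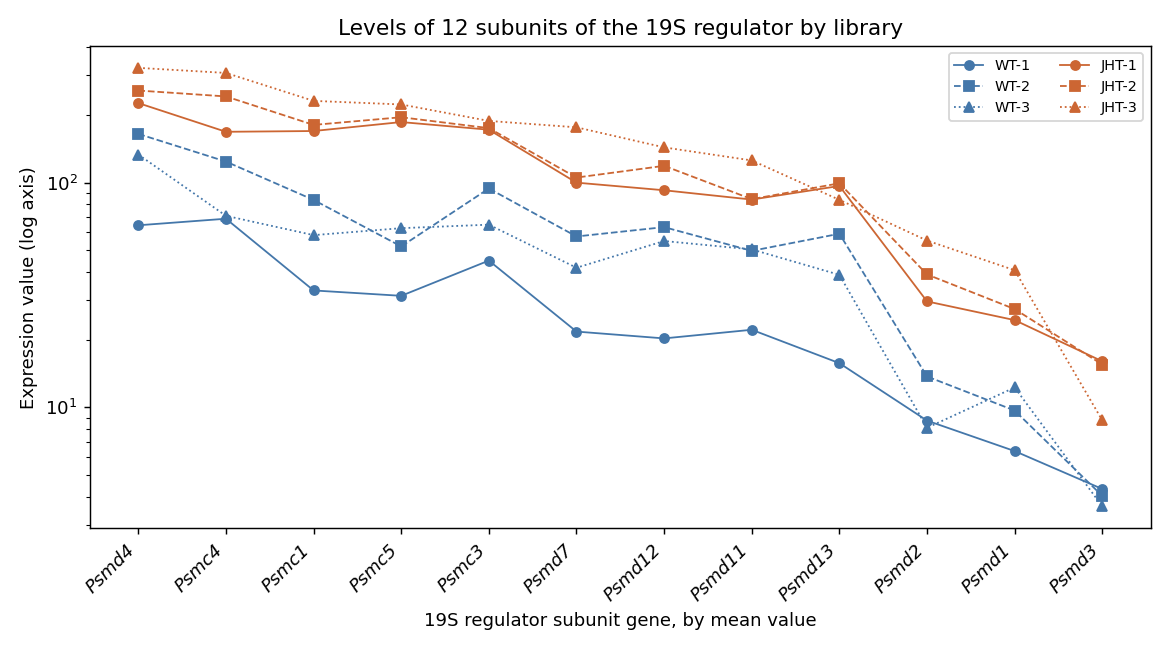
Expression value (log axis, scaled for gene length and library) of the 12 listed subunits of the 19S regulator, sorted by mean value, with a line for each of 3 WT (blue) and 3 JHT (orange) libraries. The lines fall together from Psmd4 to Psmd3 and the blue lines stay under the orange ones, with summed values of 342, 776 and 601 in WT and 1366, 1540.3 and 1909 in JHT.

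Promoter sequences are shown for 5 proteasome genes and Anapc5, chosen because they hold a motif known from housekeeping promoters ahead of the annotated start, so they are examples of a match and not a sample of these promoters. RefSeq sequences (GRCm38.p6) of the 250 bases before the start were found for 28 of the 34 genes, 10 of them proteasome genes. The ETS motif CCGGAAG, searched on both strands like all motifs here, occurred in 10 of 28 promoters (35.7%) and in 6 of 10 proteasome promoters (60%), against 18.5% of 794 promoters of listed genes and 7.07% of all 27025 mouse promoters. These shares use the RefSeq start alone. For Psmc1 and Psmd12, which are among the 6, the match lies inside a transcript of the GENCODE gene models, which starts farther out. The motif of nuclear respiratory factor NRF1 (GCGCA, any base and GCGC) occurred in 4 of 28 (14.3%, against 9.70% of listed genes and 3.87% of all). Capitals mark the ETS motif or its reverse complement in Psmd2 (chr16:20651592-20651651, plus strand), Psmd11 (chr11:80428555-80428614, plus strand), Psmd4 (chr3:95042615-95042744, minus strand) and Psme3 (chr11:101316083-101316212, plus strand), the reverse complement of the NRF1 motif in Psmc5 (chr11:106256094-106256153, plus strand), and the reverse complement of the CCAAT box in Anapc5 (chr5:122821343-122821402, minus strand). All are written 5′ to 3′ and end before the annotated start.
Psmd2: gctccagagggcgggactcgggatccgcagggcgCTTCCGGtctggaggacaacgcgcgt
Psmd11: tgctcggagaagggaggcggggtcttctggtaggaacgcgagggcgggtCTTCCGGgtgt
Psmd4: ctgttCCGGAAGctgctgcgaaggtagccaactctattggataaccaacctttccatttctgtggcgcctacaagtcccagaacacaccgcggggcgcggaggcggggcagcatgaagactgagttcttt
Psme3: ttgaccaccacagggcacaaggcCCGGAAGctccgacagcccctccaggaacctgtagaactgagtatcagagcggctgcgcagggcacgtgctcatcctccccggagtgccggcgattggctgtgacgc
Psmc5: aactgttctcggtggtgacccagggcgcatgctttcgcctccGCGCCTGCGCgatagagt
Anapc5: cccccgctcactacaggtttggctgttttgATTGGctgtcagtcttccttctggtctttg

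The ETS motif lay 26 to 20 bases before the start of Psmd2 and 11 to 5 bases before that of Psmd11, both in the orientation of its reverse complement. In Psmd4 and Psme3 it lay farther out, at 125 to 119 and at 107 to 101 bases. The other proteasome promoters with it were those of Psmc1 and Psmd12, and in the ubiquitin system it was found for Otub1, Uba2, Ube2j2 and Ube2v1. The matches of Psmc1, Psmd12, Otub1 and Uba2 did not lie wholly ahead of the start in the GENCODE gene models. The antioxidant response element TGACNNNGC, through which proteasome genes can be induced by the unrelated factor Nfe2l1, occurred in 4 of 28 promoters (14.3%) and 1 of 10 proteasome promoters, that of Psmd12, against 12.8% of listed genes and 10.1% of all promoters. The CCAAT box occurred in 8 of 28 (28.6%, against 41.2% of listed genes and 34.5% of all), the E-box CACGTG in 3 of 28 (10.7%, against 10.3% of listed genes and 6.04% of all) and the YY1 motif AAGATGGCG in 0 of 28 (against 1.64% of listed genes and 0.592% of all). No matches of different motifs overlapped each other in these 28 promoters. The GC content of these promoters had a median of 59.2%, against 52.0% over all, and the part of base composition in these shares was not tested. A match is a description of the letters, not of binding.

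**Figure D3:**
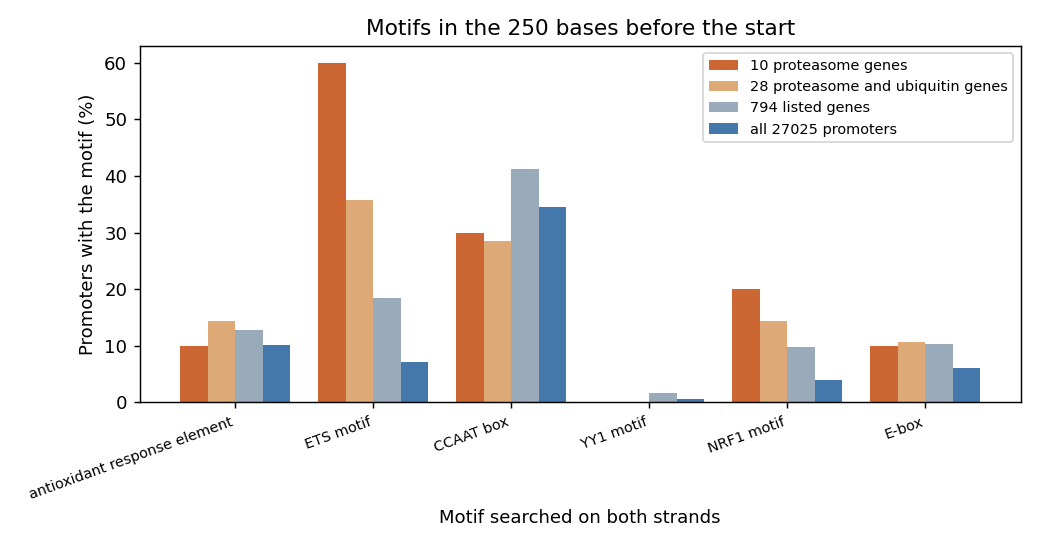
Share of promoters (%, 250 bases before the RefSeq start) that hold each of 6 motifs on either strand, for 10 proteasome genes, 28 proteasome and ubiquitin genes (the 10 included), 794 listed genes and all 27025 mouse promoters. The ETS bars fall from 60% in proteasome genes to 7.07% in all promoters, while the CCAAT bar of the 28 genes (28.6%) is below that of all promoters (34.5%).

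The listed E1 and E2 enzymes serve ubiquitin and its relatives SUMO and NEDD8, and all 5 rose, by a median of 3.10-fold. Uba2 is the catalytic subunit of the E1 for SUMO. Uba2 had values of 9.12, 10.1 and 10.9 in WT and 36.6, 24.5 and 40.2 in JHT. Its WT values were nearly equal, and the means of 10.03 ± 0.878 and 33.7 ± 8.24 (SD, n = 3) differed 3.36-fold (log2 change 1.63 ± 0.39 SE, adjusted p = 0.000107 by limma). The partner subunit Sae1, which the symbol stems do not cover, had values of 2.17, 4.85 and 7.81 in WT and 28.9, 30.6 and 19.4 in JHT (5.32-fold), and the SUMO gene Sumo3 had 19.4, 40.6 and 28.9 against 64.1, 74.6 and 79.98 (2.46-fold).

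Ube2v1 is an inactive E2 variant that pairs with Ube2n to build ubiquitin chains for signalling rather than destruction. It had values of 19.9, 31.3 and 22.8 in WT and 70.3, 89.9 and 103 in JHT, with means of 24.7 ± 5.95 and 87.9 ± 16.6 (SD, n = 3) that differed 3.56-fold (log2 change 1.80 ± 0.40 SE, adjusted p = 2.82e-05 by limma). Its identity is uncertain, because 83.0% of its 75-base stretches also occur in other genes, mostly in Gm20431, which overlaps it on the same strand. Of the other E2 genes, Ube2j2, an enzyme anchored in the endoplasmic reticulum membrane, had values of 13.8, 8.56 and 16.3 in WT and 37.0, 37.5 and 45.3 in JHT (3.10-fold). The NEDD8 conjugating enzyme Ube2m reached 8.74, 11.7 and 14.9 in WT and 32.4, 28.3 and 35.2 in JHT (2.71-fold). The smallest fold of the group was that of Ube2g2, which acts in degradation from the endoplasmic reticulum, at 8.19, 21.7 and 20.3 in WT and 37.6, 34.1 and 43.3 in JHT (2.29-fold).

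Among the genes of the anaphase-promoting complex and the COP9 signalosome was the largest log2 change of the 34. Anapc5 (ENSMUSG00000029472, chr5:122787459-122821339 on the minus strand of GRCm38) is a scaffold subunit of the anaphase-promoting complex, the ligase that triggers chromosome separation and mitotic exit. It had values of 9.73, 20.5 and 15.1 in WT and 47.7, 74.99 and 109 in JHT. Every JHT value was at least 2.33 times the highest WT value, and the JHT libraries differed widely among themselves. The means of 15.1 ± 5.37 and 77.1 ± 30.5 (SD, n = 3) differed 5.11-fold, with a log2 change of 2.26 ± 0.40 (SE) and an adjusted p of 2.91e-07 by limma, and the fold ranged from 4.06 to 6.21 when single libraries were left out. Fbxo5, an inhibitor of the same ligase during interphase, had values of 22.7, 26.3 and 23.5 in WT and 54.1, 76.4 and 97.4 in JHT (3.14-fold), with close WT values (24.2 ± 1.89, SD, n = 3). The ligase's activators, outside the symbol stems, were also higher, Cdc20 by 4.51-fold and Fzr1 by 2.94-fold.

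The COP9 signalosome strips NEDD8 from cullin ligases. Its structural subunit Cops6 had the highest level of the 34 genes in 5 of 6 libraries (Psmd4 led in WT-2), with values of 93.4, 162 and 162 in WT and 378, 290.04 and 391 in JHT. The means of 139 ± 39.6 and 353 ± 55.0 (SD, n = 3) differed 2.54-fold (log2 change 1.37 ± 0.37 SE, adjusted p = 0.000428 by limma). Its catalytic partner Cops5 reached 29.1, 48.2 and 66.9 in WT and 80.3, 118 and 140 in JHT (2.34-fold).

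The RING and TRIM ligases held both the largest fold and the smallest one. Rnf121, a membrane ligase of the secretory pathway, had values of 1.41, 1.95 and 1.44 in WT and 8.96, 7.49 and 9.42 in JHT, the lowest level of the 34 genes in 5 of 6 libraries (Psmd3 was lower in JHT-3). These rest on 75, 119 and 93 reads in WT and 531, 573 and 552 in JHT. The groups were tight and far apart, with means of 1.60 ± 0.305 and 8.62 ± 1.006 (SD, n = 3) that differed 5.40-fold. The log2 change was 1.89 ± 0.41 (SE, adjusted p = 2.07e-05 by limma). It was 2.37 with 0.1 in place of 1 added before the logarithm, so the added 1 lowers it at this level.

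Rnf5, a ligase anchored in the endoplasmic reticulum membrane, had the highest level of the ligases, at 32.7, 46.1 and 48.7 in WT and 95.4, 91.1 and 68.6 in JHT. Its fold of 2.00 sat at the cut of the authors' selection (means of 42.5 ± 8.61 and 85.0 ± 14.4, SD, n = 3; log2 change 0.99 ± 0.40 SE, adjusted p = 0.0129 by limma). The limma call of Rnf5 was lost without JHT-1 (adjusted p = 0.0660) and without JHT-2 (0.0662). Other genes cover 24.7% of its exon bases in all, with the largest overlap that of Gm20463 on the opposite strand. Trim27, a ligase of innate signalling and endosomal sorting, had values of 3.73, 8.04 and 5.09 in WT and 12.7, 8.86 and 13.5 in JHT (2.08-fold), so that WT-2 and JHT-2 nearly touched. The limma call of Trim27 was lost without WT-1, JHT-1 or JHT-3 (adjusted p = 0.0684, 0.0550 and 0.0579). Rnf187, a co-activator of AP-1 in human cells, stood at 14.9, 19.6 and 11.9 against 35.0, 37.6 and 49.2 (2.63-fold). Rnf166 had 13.3, 17.5 and 25.5 against 51.4, 56.0 and 33.9 (2.51-fold), with JHT-3 its lowest JHT library.

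The 3 listed deubiquitinases rose by a median of 2.25-fold. Uchl5, which trims ubiquitin chains on the 19S regulator, had values of 26.6, 67.3 and 68.1 in WT and 99.6, 106 and 159 in JHT. WT-1 lay far under the other WT libraries for it, and the means of 54.0 ± 23.7 and 121 ± 32.6 (SD, n = 3) differed 2.25-fold (log2 change 1.24 ± 0.39 SE, adjusted p = 0.00216 by limma). Otulin, which cleaves the linear chains that relay NF-kB signalling, reached 33.2, 71.5 and 52.0 in WT and 89.9, 101 and 148 in JHT (2.16-fold). Otub1, which also blocks E2 enzymes by binding them, had 12.6, 32.2 and 18.9 against 70.7, 55.5 and 46.7 (2.71-fold), and here JHT-1 was the highest library.

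Vcp is an ATPase that pulls ubiquitin-marked proteins out of membranes and complexes, with cofactors that select its substrates. The 4 genes of this group that the symbol stems cover had the smallest folds as a group, 2.02 to 2.29. Outside the stems, the cofactors Nsfl1c and Faf2 rose 3.20-fold and 2.17-fold. Ubxn1, a cofactor with a ubiquitin-like domain, had the highest level, at 45.7, 65.4 and 48.4 in WT and 106, 92.0 and 127 in JHT. Its means of 53.2 ± 10.7 and 108 ± 17.4 (SD, n = 3) differed 2.04-fold (log2 change 1.02 ± 0.39 SE, adjusted p = 0.0102 by limma). Vcp itself had values of 13.2, 17.4 and 6.70 in WT and 32.8, 26.6 and 26.3 in JHT (2.29-fold), and 55.7% of its 75-base stretches are shared with other genes, mostly with Vcp-rs. The cofactor Ufd1l, which binds ubiquitin chains for Vcp, reached 29.8, 39.2 and 53.0 against 68.3, 77.6 and 101 (2.02-fold), and Ubxn11 2.42, 6.10 and 6.37 against 10.8, 9.43 and 13.1 (2.24-fold). All 4 limma calls depended on a library: the adjusted p was 0.0514 for Ubxn1 and 0.0622 for Ufd1l without JHT-3, 0.0554 for Vcp without WT-3 and 0.0771 for Ubxn11 without WT-1. No other gene of the 34 but Rnf5 and Trim27 lost its call this way, and 0 turned direction.

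Beyond the 34 genes, the lists of the pathway show which parts of the system the table covers. Each list counts symbols, and some lists hold an older and a newer symbol of the same gene, such as Sem1 and Shfm1. Of the 19S regulator 4 of 6 ATPases and 8 of 14 non-ATPase symbols had values, and all were higher in JHT. Of the 20S core 0 of 8 alpha subunits and 0 of 7 beta subunits had values. The lists of assembly chaperones (0 of 10 symbols), cullin and SCF genes (0 of 21) and regulators of proteasome gene expression and stress (0 of 11) had none either. These were not analysed here, so nothing is said of their change. Of the 4 core subunits of the immunoproteasome and thymoproteasome 1 had values, the immunoproteasome gene Psmb8. Its values were 476, 1048 and 935 in WT and 1627, 1743 and 1938 in JHT (2.16-fold). Among 25 symbols of the Vcp system 6 had values, including the cofactors Nsfl1c (3.20-fold) and Faf2 (2.17-fold). Of 10 proteasome-bound deubiquitinases and shuttle factors 2 did, Uchl5 and Ubqln1 (2.73-fold). In each of these lists the genes with values were higher in JHT and 0 were lower, as were 96.6% of all listed genes. The deubiquitinase of ISG15, Usp18, was also higher (2.93-fold).

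The changes were also read relative to the rise that most listed genes share. Giving all 6 libraries the same median over the listed genes took 1.44 off each log2 change, so that close to equal numbers of listed genes fall on each side of 0 by construction, and the signs say nothing of the direction as deposited. On this scale the median log2 change of the 34 genes was 0.00, with 18 genes above 0 and 16 below, against 53.3% of all listed genes above 0. By limma 0 of the 34 then had an adjusted p under 0.05 (2 had an unadjusted p under 0.05), where 2.06% of the listed genes were called higher. Quantile normalization gave a median of 0.07, 19 genes above 0 and 15 below (53% of all listed genes above 0), and 1 call, Psmc5 (adjusted p = 0.031), where 2.55% of the listed genes were called higher.

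By role, among the 13 proteasome genes 11 lay above 0 under both scalings and only Psmd4 and Psmd11 below, with medians of 0.05 and 0.13, and all 4 ATPases lay above 0. Under equal medians several of the 11 lay almost on 0, among them Psmc3 (0.00052), Psmc4 (0.0041), Psmd13 (0.019) and Psmd12 (0.029), and the highest was Psmc5 (0.64). Some ubiquitin genes also lay near 0, such as Otub1 (0.036) and Ube2m (-0.051), so the sign of such genes says little. Among the 21 ubiquitin genes 7 lay above 0 under equal medians and 8 under quantile normalization. The 4 genes of the Vcp group taken by symbol all lay below 0 under both, and of the 5 ligases only Rnf121 lay above. Among Vcp cofactors outside the symbol stems, Nsfl1c lay above 0 under both (0.31 and 0.34) and Faf2 below (-0.34 and -0.30). Of the 5 E1 and E2 enzymes 3 lay above 0 under both, of the 3 deubiquitinases 1 under both, and of the 4 anaphase complex and COP9 genes 2 under equal medians and 3 under quantile normalization. These counts are a description, since 0 and 1 of the 34 genes were called under these scalings and no test of a difference between roles was made.

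**Figure D4:**
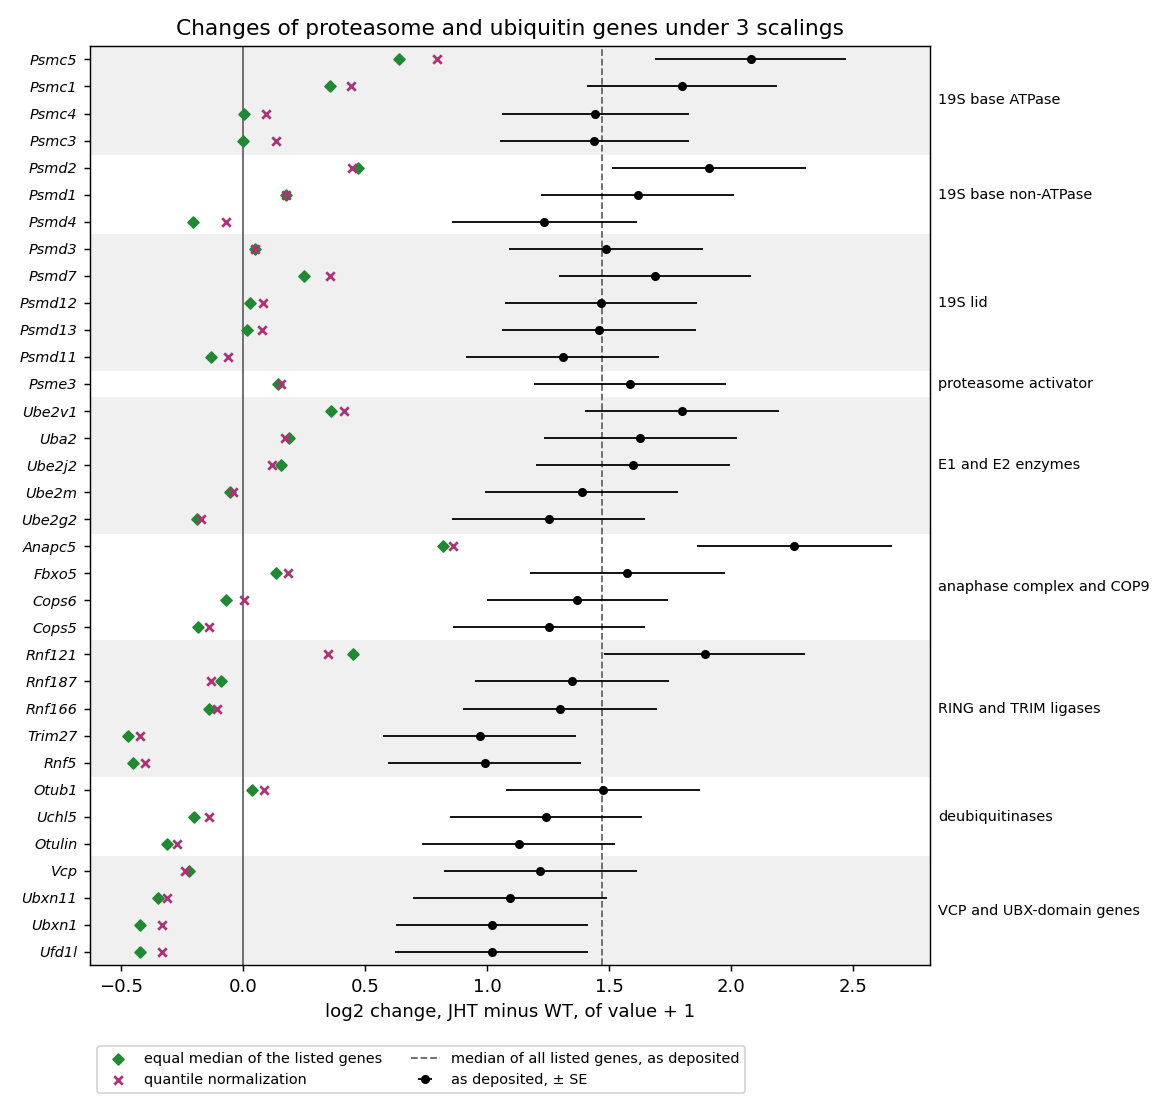
Log2 change (JHT minus WT, value + 1) of the 34 genes by role, as deposited with its SE from limma (black), after equal medians of the listed genes (green) and after quantile normalization (purple). The black points lie between 0.97 and 2.26 around the dashed median of all listed genes at 1.47. Below 0 lie 16 of the green and 15 of the purple points, among them those of the 4 Vcp group genes taken by symbol.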

How the data were processed

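Splenic M45 tetramer+ CD8+ T cells of 3 WT and 3 JHT mice were sorted 7 days after MCMV infection and sequenced in bulk after SMART-Seq amplification and Nextera XT library preparation. The authors trimmed adaptors, mapped the reads to GRCm38 and made the values in CLC Genomics Workbench with default settings. The sources used here name neither the annotation nor the use of strand, nor whether values are RPKM or TPM. In the deposited table each gene has an expression signal per library that the authors had scaled for transcript length and library size. Of its other columns, the authors' fold change and p-value served only to read the selection. Their difference, FDR and log forms were not used.

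All 1018 listed genes have an unadjusted p under 0.05 and a fold of at least 2 on the deposited values, so p-values are conditional on that selection and too small as evidence. The study's text describes the cut as one on an adjusted p, which was not examined here. Log2(value + 1) was compared with limma 3.58.1 in R 4.3.3 (trended variance, no covariate, values of at least 1 in at least 3 libraries, Benjamini-Hochberg over 1018 genes, threshold 0.05). Folds are ratios of group means, and log2(value + 1) understates the change of low genes. An exact two-sided permutation test of 3 against 3 cannot go below p = 0.1. The procedure was run on simulated data with equal numbers of rises and falls and no selection of genes. The listed genes are selected and mostly higher in JHT, and the simulation does not cover that setting. Samples were grouped by their titles.

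Whole reads were recovered as the smallest whole numbers behind each gene's values, within a tolerance of 0.001, for all 34 genes and for 1013 of the 1018. They are lower limits of the reads behind a value, and the depth of each library is unknown. Gene models came from GENCODE M21 on GRCm38, in which all 34 symbols matched (Ufd1l as Ufd1), and promoters from RefSeq on GRCm38.p6, 1 per gene at its upstream-most start. Genes were described with the value in every library, and the fuller statistics went to the gene with the highest mean among 19S subunits, activators, E1, E2, ligases, anaphase complex and COP9 genes, deubiquitinases and the Vcp system, the 5 largest log2 changes and any gene that kept its call under another scaling. The genes and lists were chosen with earlier results of these data known. Alternatives were a pseudocount of 0.1, no filter, a constant prior variance, equal medians, quantile normalization, a replicate block and leaving out each library.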

Additional observations from a re-analysis of the deposited data

How the results depend on the processing

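With a pseudocount of 0.1, no filter on low values, a constant prior variance or a replicate block, all 34 genes, all 13 proteasome genes and all 1018 listed genes were called as in the main result. Deviations of same-numbered libraries correlated by 0.17, 0.03 and 0.11, and those of differently numbered libraries by -0.13 to 0.03. Whether the replicate numbers pair the mice could not be settled with 3 mice a group. Leaving out single libraries gave 956 to 1010 calls among the listed genes, 31 to 34 among the 34 genes and 13 among the proteasome genes. The listed genes had been selected for a difference between these same libraries, so the calls in this paragraph were largely set in advance.

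Equal medians of the listed genes left 56 calls in the table, 0 among the 34 genes and 0 among the proteasome genes, and quantile normalization left 60, 1 and 1. Both remove a shared rise by construction. The log2 change turned negative under equal medians and under quantile normalization for Cops5 (-0.19, -0.14), Otulin (-0.31, -0.27), Psmd11 (-0.13, -0.063), Psmd4 (-0.20, -0.067), Rnf166 (-0.14, -0.10), Rnf187 (-0.090, -0.13), Rnf5 (-0.45, -0.40), Trim27 (-0.47, -0.42), Ube2g2 (-0.19, -0.17), Ube2m (-0.051, -0.038), Ubxn1 (-0.42, -0.33), Ubxn11 (-0.35, -0.31), Uchl5 (-0.20, -0.14), Ufd1l (-0.42, -0.33) and Vcp (-0.22, -0.24), and under equal medians alone for Cops6 (-0.069). The table holds selected genes and 3 mice a group, so neither an unselected background nor the depth of each library could be set beside these values.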
